A study of Homo sapiens with 36 samples.

Results

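The carbonic anhydrases described here are 10 genes, CA1, CA2, CA4, CA5B, CA8, CA9, CA11, CA12, CA13 and CA14. They were chosen by gene symbol, and each symbol matched 1 Ensembl gene ID among the 57500 genes counted in the files. A transcript was called expressed where it reached 1 TPM (length-scaled transcript abundance) in all 3 libraries of at least 1 condition. By that definition 6 members were expressed in these cells, namely CA2, CA5B, CA8, CA11, CA13 and CA14. CA2, CA11 and CA13 met it in all 12 conditions, CA5B in 8 and CA14 in 6. CA8 met it in only 2, both of the non-targeting control line. CA12 was low, and CA1, CA4 and CA9 had too few counts to test.

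Carbonic anhydrases catalyse the reversible hydration of CO2 to bicarbonate and a proton. They differ in where they work: CA1, CA2 and CA13 are cytosolic, CA5B is mitochondrial, and CA4, CA9, CA12 and CA14 face the outside of the cell from the plasma membrane. CA8 and CA11 belong to the family by sequence but lack the enzyme activity, and are known as carbonic anhydrase-related proteins. In myeloid cells CA2 is best known for supplying protons to osteoclasts, which form from monocyte precursors.

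The cells were THP-1, a human monocytic leukaemia line, as stable lentiviral lines carrying a non-targeting short hairpin RNA (shNT) or one against NR4A2 (shNR4A2) or NR4A3 (shNR4A3), both nuclear receptors of the NR4A family. Each line was held for 4 h in buffered medium equilibrated with 5% CO2 or with 10% CO2 (hypercapnia), either untreated (basal) or with 2.5 µg/ml lipopolysaccharide (LPS, a bacterial cell wall component) for 2 h. This gave 12 conditions with 3 libraries each. With 1 line per hairpin, the hairpin and the line cannot be told apart, and any difference between lines is given as a difference of lines.

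The 36 libraries held 16171161 to 23929138 counts. NR4A2, as a check of the labels, was at 44.0 to 74.7 TPM in the 6 LPS-treated shNT libraries and at 13.4 to 28.3 TPM in those of shNR4A2, and its basal ranges overlapped (1.49 to 4.16 TPM and 1.07 to 2.41 TPM). NR4A3 was at 30.6 to 38.6 TPM in the LPS-treated shNT libraries and at 12.5 to 20.0 TPM in those of shNR4A3, and its basal ranges overlapped too (0.176 to 0.693 TPM and 0.0315 to 0.232 TPM). Against shNT over the 4 treatments, edgeR's test called both genes lower in shNR4A3 cells (adjusted p under 0.05). In shNR4A2 cells it called 1 of them lower and 1 higher. Each knockdown line thus differed from shNT in both genes. All 7 monocyte markers examined (CD14, CD33, ITGAM, LYZ, SPI1, CSF1R and FCGR1A) had at least 81 counts in every library. The erythroid markers HBB, HBA1, HBA2 and ALAS2, which mark the cells best known for CA1 and CA2, had 0 to 3 counts in any library. The T cell markers CD3D and CD3E (0 to 8 counts) and the B cell marker MS4A1 (0 to 3 counts) were also near 0. The epithelial markers EPCAM, KRT8 and KRT18 had 0 to 69 counts, and of the endothelial markers VWF had 7 to 34 counts and PECAM1, which monocytes also express, 3304 to 14582.

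CA2, among the fastest of the family's enzymes, made up nearly all of the carbonic anhydrase message. Its level ranged from 2572 to 6046 TPM over the 36 libraries, with a median of 4182 TPM. CA2 ranked 13th to 42nd among all genes by TPM in the single libraries and took 0.160% to 0.375% of all counts. Of the summed TPM of the 10 members, 99.5% to 99.8% was CA2.

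The other expressed members lay far below it. CA11 (median 5.45 TPM, range 3.33 to 8.57) and CA13 (median 5.29 TPM, range 3.58 to 8.05) followed, and their ranges overlapped almost entirely. CA5B (median 1.36 TPM, range 0.704 to 2.17) and CA14 (median 1.32 TPM, range 0.304 to 3.01) came next and overlapped as well. CA8 had a median of 0.420 TPM, and its range of 0.175 to 1.44 TPM held a group of high libraries, all of the shNT line. CA12 had a median of 0.168 TPM (range 0.0309 to 0.417) on 1 to 16 counts.

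**Figure D1:**
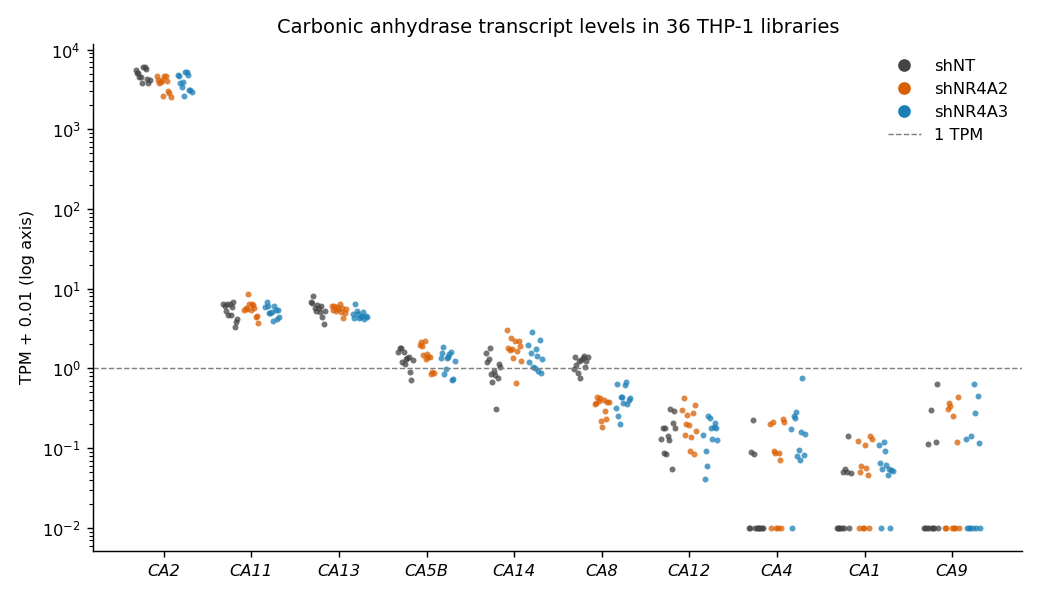
TPM of the 10 carbonic anhydrases in each of the 36 libraries, ordered by median, with 0.01 added and a logarithmic vertical axis; points are libraries, coloured by cell line, and the dashed line marks 1 TPM. CA2 lies at 2572 to 6046 TPM, CA11 and CA13 at 3.33 to 8.57 TPM, and CA4, CA1 and CA9 are at 0 in many libraries.

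By the positions in the count files, on GRCh38 as the submitters' processing notes name it, CA13, CA1 and CA2 lie close together on chromosome 8, at 85220587 to 85284073 (plus strand), 85327608 to 85379014 (minus strand) and 85463852 to 85481493 (plus strand). CA8 lies elsewhere on that chromosome, at 60187347 to 60281412 (minus strand). CA4 lies on chromosome 17 at 60149936 to 60170899 (plus strand), CA9 on chromosome 9 at 35673856 to 35681159 (plus strand), CA11 on chromosome 19 at 48637942 to 48646312 (minus strand) and CA12 on chromosome 15 at 63321378 to 63382161 (minus strand). CA13 and CA2 were expressed while CA1, annotated between them, had 35 counts in all 36 libraries together. CA3, another cytosolic member of the family and no member of the set, also lies between CA13 and CA2. It spans 85373436 to 85449040 (plus strand) and was at 3.39 to 10.1 TPM.

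CA1, CA4 and CA9 were at or near the limit of counting. CA1, the main red-cell enzyme with CA2, had 0 to 3 counts in a library and was seen in 23 of 36. CA4, a lipid-anchored enzyme of the cell surface, had 0 to 10 counts and 50 in all. Its counts summed to 5 over the 12 shNT libraries, 16 over those of shNR4A2 and 29 over those of shNR4A3, of which 10 came from 1 LPS-treated library. CA9, a transmembrane enzyme known as a target of hypoxia-inducible factor, had 0 to 6 counts and 42 in all, 14 in basal and 28 in LPS-treated libraries. Its annotated exons share 643 bases (38.5% of their length) with ARHGEF39 on the opposite strand, which had 223 to 883 counts. The strand setting of the counting is not given in the sources used here, so counts of the overlapping exons cannot be assigned to 1 strand. These 3 genes failed the filter on low counts, and nothing is read from them.

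The 7 members that passed the filter were tested among 17720 genes with edgeR's quasi-likelihood test on the counts. The mean response to 10% CO2 was the log2 difference between 10% and 5% CO2 averaged over the 3 lines with and without LPS. CA5B, CA11 and CA13 passed the threshold (adjusted p under 0.05), all lower at 10% CO2. That is 3 of 7 members, where 36.4% of all genes tested were called and 19.4% were called lower. The median log2 difference of the 7 was -0.14, against -0.0042 over all genes tested. CA11 and CA13 passed it narrowly, and CA5B by a wide margin.

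CA5B, which supplies bicarbonate inside mitochondria, fell by 0.36 on the log2 scale (SE 0.084, adjusted p = 0.000894), to 0.777 of its level at 5% CO2. In basal shNT cells its counts scaled to library size with TMM factors (normalised CPM) were 3.50, 4.05 and 3.68 at 5% CO2 and 2.95, 3.12 and 3.08 at 10% CO2. In basal shNR4A2 cells they were 4.20, 4.73 and 3.95 at 5% and 3.50, 2.93 and 3.10 at 10% CO2. In both lines every library at 10% CO2 lay under every library at 5%.

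The separation of CA5B was widest in LPS-treated shNR4A2 cells, where the normalised CPM was 3.99, 5.28 and 3.45 at 5% CO2 and 2.44, 2.28 and 2.25 at 10% CO2. In LPS-treated shNT cells the values were 3.03, 3.85 and 2.93 at 5% and 2.47, 2.07 and 3.31 at 10% CO2, and they overlapped. In shNR4A3 cells they were 3.13, 3.38 and 4.10 at 5% and 3.22, 3.48 and 3.39 at 10% CO2 without LPS, with a difference of the means (3.53 ± 0.505 and 3.36 ± 0.133, SD, n = 3) smaller than the spread. With LPS they were 2.31, 2.39 and 3.57 at 5% and 1.95, 1.90 and 3.36 at 10% CO2, also overlapping. The mean of CA5B was lower at 10% CO2 in 6 of 6 pairs of conditions, and the libraries separated in 3 of them. Such separations were not counted over all genes, here or in the later comparisons, so they only describe the libraries.

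CA5B lies on chromosome X at 15688830 to 15788409 (plus strand) and shares 29 exon bases with CA5BP1, a near-identical pseudogene on the same strand that had 161 to 333 counts per library against 33 to 107 for CA5B. The study's methods speak of unique gene hits, so reads that match both genes equally may be absent from the CA5B counts, and its level is uncertain to that extent. The 250 bases before the RefSeq start of CA5B (GRCh38.p14, chrX:15738020-15738269, plus strand) are shown because CA5B was the member with the firmest CO2 difference. The window lies inside the annotated span of CA5B, downstream of its first annotated base, and overlaps no exon of the annotation used for counting. Capitals mark GGGCG, the core of the GC box bound by factors of the Sp and KLF families. Both strands were searched, and 54.8% of the 35116 RefSeq promoter windows of this length hold that core.

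CA5B: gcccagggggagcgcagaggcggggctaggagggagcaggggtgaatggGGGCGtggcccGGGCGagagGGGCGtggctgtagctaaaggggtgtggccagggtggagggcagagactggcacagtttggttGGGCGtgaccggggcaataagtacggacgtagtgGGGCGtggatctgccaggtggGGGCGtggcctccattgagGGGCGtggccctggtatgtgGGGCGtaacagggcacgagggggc

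The window held 8 copies of the core, and 5 of them read GGGCGTGG. That longer form was picked out after the sequence had been seen. It occurs in 4.71% of the windows, and 11 of the 35116 hold at least 5 copies. The binding element of monomeric NR4A receptors, AAAGGTCA (1.05% of windows), and the hypoxia-response core, ACGTG (18.5% of windows), had no match on either strand.

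CA11, a related protein without enzyme activity, fell by 0.21 on the log2 scale at 10% CO2 (SE 0.079, adjusted p = 0.0377). The separation came from LPS-treated cells of the shNT and shNR4A2 lines. With LPS, shNT cells had normalised CPM of 3.91, 2.77 and 4.00 at 5% and 2.23, 2.72 and 2.65 at 10% CO2. With LPS, shNR4A2 cells had 5.66, 3.80 and 3.45 at 5% and 3.05, 2.82 and 2.40 at 10% CO2. In both pairs the 3 libraries at 10% CO2 lay under the 3 at 5%, while in basal shNR4A2 cells those at 10% CO2 (3.66, 3.21 and 3.06) lay above those at 5% (2.82, 3.05 and 2.86). The call was lost in 15 of the 36 fits that each left out 1 library, with the highest adjusted p (0.0802) without the LPS-treated shNR4A2 library at 5.66. It was also lost with DESeq2 and without the filter on low counts.

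CA13, a cytosolic enzyme, fell by 0.14 on the log2 scale (SE 0.057, adjusted p = 0.0484). Its clearest separation was in basal shNT cells, with 9.70, 9.64 and 10.8 normalised CPM at 5% and 8.61, 7.60 and 8.76 at 10% CO2. In basal shNR4A3 cells the values were 7.28, 6.01 and 9.35 at 5% and 6.67, 6.72 and 6.97 at 10% CO2, and they overlapped, as did the other 4 pairs. The mean of CA13 was lower at 10% CO2 in 5 of 6 pairs. The call was lost in 26 of the 36 fits without 1 library, with the highest adjusted p (0.109) without the basal shNR4A3 library at 9.35, and also with size factors of the RLE method, with DESeq2 and without the filter.

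**Figure D2:**
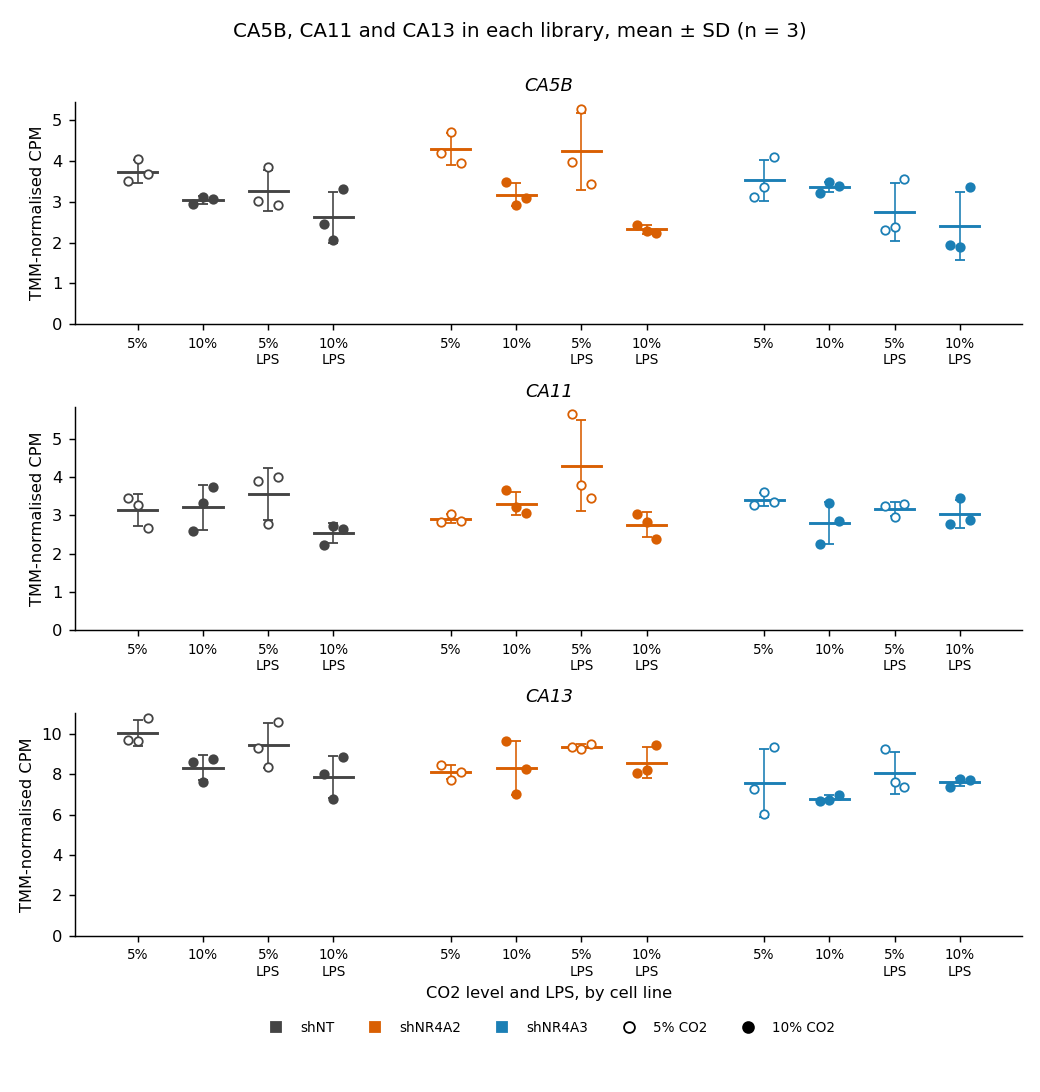
TMM-normalised CPM of CA5B, CA11 and CA13 in each library by cell line, CO2 level and LPS; open points are 5% CO2, filled points 10% CO2, and lines with bars are the mean and SD of 3 libraries. CA5B had the lower mean at 10% CO2 in 6 of 6 pairs, CA13 in 5 of 6 and CA11 in 4 of 6.

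The other 4 members did not pass the threshold in the mean CO2 response. CA2 differed by 0.05 on the log2 scale (SE 0.053, adjusted p = 0.467), CA8 by 0.19 (SE 0.13, adjusted p = 0.270) and CA12 by 0.21 (SE 0.25, adjusted p = 0.543). CA14, a transmembrane enzyme, differed by -0.29 (SE 0.19, adjusted p = 0.247), although in basal shNT cells its libraries at 10% CO2 (0.952, 0.856 and 0.308 normalised CPM) lay under those at 5% (1.53, 1.20 and 1.20). The precision differed widely among them, since CA2 rested on 32295 to 76002 counts a library and CA12 on 1 to 16.

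CA2 at 10% CO2 showed values on both sides of 0 in the single pairs. In basal shNT cells its normalised CPM was 3027, 2820 and 2602 at 5% and 3412, 3489 and 3182 at 10% CO2, with no overlap. In basal shNR4A3 cells it was 2730, 2479 and 2148 at 5% and 3061, 2971 and 2539 at 10% CO2, and in basal shNR4A2 cells 2500, 2294 and 1982 at 5% and 2694, 2454 and 2265 at 10% CO2. Both of these overlapped. With LPS the means at 5% and 10% CO2 were 2678 ± 199 and 2810 ± 145 in shNT cells, 2300 ± 516 and 1910 ± 254 in shNR4A2 cells, and 2164 ± 373 and 2037 ± 95.1 in shNR4A3 cells (SD, n = 3 each), with differences of the order of the spread.

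Each line and state was tested on its own 6 libraries, without the replicate number as a block. With the filter on low counts, no member passed the threshold in any of the 6 comparisons of 10% with 5% CO2. Over all genes edgeR called 0.615% in basal and 8.19% in LPS-treated shNT cells, 0.0113% and 0.198% in shNR4A2 cells, and 1.13% and 2.13% in shNR4A3 cells. DESeq2 called no member either. Without the filter edgeR called CA5B in LPS-treated shNR4A2 cells (-0.89, adjusted p = 0.0260) and CA2 in basal shNR4A3 cells (0.24, adjusted p = 0.0457). With the filter, 6 member results had an unadjusted p under 0.05 in edgeR's test. They were CA2 (log2 difference 0.26, adjusted p = 0.175) and CA14 (-0.90, adjusted p = 0.272) in basal shNT cells, CA11 (-0.48, adjusted p = 0.182) in LPS-treated shNT cells, CA5B (-0.87, adjusted p = 0.111) and CA11 (-0.64, adjusted p = 0.220) in LPS-treated shNR4A2 cells, and CA2 (0.23, adjusted p = 0.222) in basal shNR4A3 cells. With the replicate number as a block the last of these was called (0.23, adjusted p = 0.00936), and in basal shNR4A2 cells, where same-numbered libraries deviated together in all 3 pairs, the calls over all genes went from 2 to 361 with no member among them. The library numbered 3 held the lowest CA2 value in 12 of 12 conditions, and in basal cells CA2 was higher at 10% than at 5% CO2 in 9 of 9 pairs of same-numbered libraries, and with LPS in 4 of 9.

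The difference of the CO2 response with and without LPS was tested as an interaction. With the filter on low counts and without the replicate number as a block, no member passed the edgeR threshold, and 1.99% of all genes did. CA2 came nearest, with a CO2 response lower under LPS by 0.30 on the log2 scale (SE 0.11, unadjusted p = 0.00805, adjusted p = 0.146). CA11 followed at -0.38 (SE 0.16, unadjusted p = 0.0218, adjusted p = 0.235). Without the LPS-treated shNR4A2 library at 5% CO2 with the lowest CA2 value of its condition (1714 normalised CPM), the CA2 interaction passed the threshold (-0.35, adjusted p = 0.0222). It also passed with the replicate number as a block (-0.29, adjusted p = 0.00407) and, in edgeR's test without the filter on low counts, at -0.31 (adjusted p = 0.00241).

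Interactions with the line gave no member call either. Over all genes 0% were called for CO2 by shNR4A2 and 0% for CO2 by shNR4A3, while 0.237% were called for LPS by shNR4A2 and 0.378% for LPS by shNR4A3. In these 4 contrasts no member had an unadjusted p under 0.05, and DESeq2 called none. The largest of them was CA12 in CO2 by shNR4A2, at -1.06 with an SE of 0.59.

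LPS lowered CA2 and CA5B in the mean over the 3 lines and both CO2 levels. CA2 fell by 0.22 on the log2 scale (SE 0.053, adjusted p = 0.000371) and CA5B by 0.28 (SE 0.084, adjusted p = 0.00383). That is 2 of 7 members, where 64.6% of all genes tested were called and 34.1% were called lower, a smaller share of the members than of all genes. The median of the 7 was 0.06 on the log2 scale, against -0.011 over all genes.

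The LPS comparison depended on the scaling. Scaling by library size alone moved the median of all genes to -0.22 and the calls from 5412 higher and 6039 lower to 2733 higher and 9800 lower. CA2 was then at -0.44 and CA5B at -0.49, below that shifted median, and both were called lower under every scaling run. CA11 (0.02, adjusted p = 0.818) and CA13 (0.06, adjusted p = 0.387) did not pass the threshold with TMM. Scaling by library size alone turned them to -0.19 and -0.15, and edgeR then called both lower (adjusted p = 0.0279 and 0.0192). CA8 was at 0.07 and turned to -0.14 with that scaling, without a call. CA12 (0.48, SE 0.25, adjusted p = 0.0930) and CA14 (0.32, SE 0.19, adjusted p = 0.151) were not called.

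At 10% CO2 the LPS-treated and basal libraries separated for CA2 in all 3 lines. In shNT cells at 10% CO2 the normalised CPM was 3412, 3489 and 3182 without and 2970, 2771 and 2688 with LPS. In shNR4A2 cells at 10% CO2 it was 2694, 2454 and 2265 without and 2184, 1863 and 1683 with LPS. In shNR4A3 cells at 10% CO2 it was 3061, 2971 and 2539 without and 2141, 2016 and 1954 with LPS. None of these 3 pairs overlapped, whereas all 3 pairs at 5% CO2 did. At 5% CO2 the means without and with LPS were 2816 and 2678 in shNT, 2259 and 2300 in shNR4A2, and 2452 and 2164 in shNR4A3 cells. LPS was not tested within a CO2 level. With the filter and without the block, edgeR's test of the CO2 by LPS interaction did not call CA2 (adjusted p = 0.146). The mean of CA5B was lower with LPS in 6 of 6 pairs, and its libraries separated in 1 of them (shNR4A2 cells at 10% CO2, 3.50, 2.93 and 3.10 against 2.44, 2.28 and 2.25 normalised CPM).

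**Figure D3:**
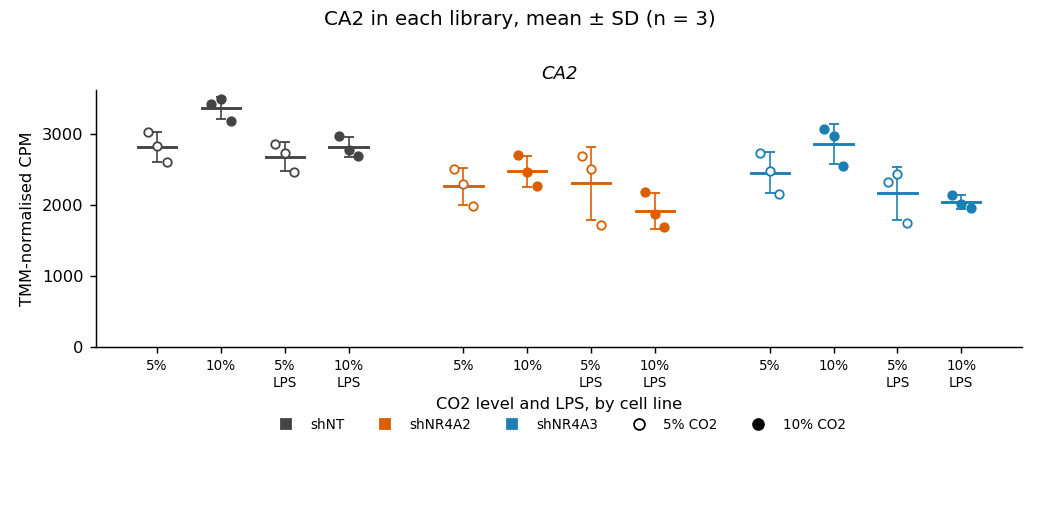
TMM-normalised CPM of CA2 in each library by cell line, CO2 level and LPS; open points are 5% CO2, filled points 10% CO2, and lines with bars are the mean and SD of 3 libraries. At 10% CO2 the LPS-treated libraries lie under the basal ones in each line, and 3 of the 4 conditions in each knockdown line lie under the matching shNT condition without overlap.

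The largest differences of the called members were between the lines. Against shNT, averaged over the 4 treatments, 3 of 7 members were called in shNR4A2 cells, 1 higher and 2 lower, where 40.9% of all genes were called, 20.2% higher and 20.7% lower. In shNR4A3 cells 4 of 7 members were called, 1 higher and 3 lower, where 32.9% of all genes were called, 16% higher and 16.9% lower. Both comparisons use the same shNT libraries, so they are not independent, and each is given with its own values. The medians of the 7 were 0.08 for shNR4A2 and -0.10 for shNR4A3 on the log2 scale, against -0.0026 and -0.0023 over all genes.

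CA8, a related protein without enzyme activity that binds an inositol trisphosphate receptor, had the largest difference of the 7 members in both knockdown lines. It fell by 1.81 on the log2 scale in shNR4A2 cells (SE 0.15, adjusted p = 1.30e-11), to 0.285 of the shNT level. In shNR4A3 cells it fell by 1.46 (SE 0.15, adjusted p = 1.60e-09), to 0.362 of the shNT level. Of all genes tested, 0.672% had a larger absolute difference in shNR4A2 and 1.07% in shNR4A3 cells.

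Across its 12 libraries the shNT line had 1.32, 1.98 and 2.43 normalised CPM of CA8 (lowest, median and highest). The shNR4A2 line had 0.277, 0.554 and 0.708, and the shNR4A3 line 0.355, 0.707 and 0.963. No library of either knockdown line reached the lowest shNT library, and the counts were 27 to 51 in shNT against 5 to 15 and 6 to 24. CA8 passed 1 TPM in all 3 libraries of 2 conditions, both of the shNT line.

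CA2 fell by 0.38 on the log2 scale in shNR4A2 cells (SE 0.065, adjusted p = 1.15e-05) and by 0.30 in shNR4A3 cells (SE 0.064, adjusted p = 0.000427), to 0.766 and 0.811 of the shNT level. In basal cells at 5% CO2 its normalised CPM was 3027, 2820 and 2602 in shNT and 2500, 2294 and 1982 in shNR4A2 cells, without overlap. The shNR4A3 libraries of that condition, at 2730, 2479 and 2148, overlapped those of shNT. Of the 4 treatments, the libraries separated in 3 for shNR4A2 and in 3 for shNR4A3.

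CA13 fell by 0.25 on the log2 scale in shNR4A3 cells (SE 0.070, adjusted p = 0.00663), while in shNR4A2 cells the difference was -0.05 (SE 0.069, adjusted p = 0.586). In basal cells at 10% CO2 the normalised CPM was 8.61, 7.60 and 8.76 in shNT and 6.67, 6.72 and 6.97 in shNR4A3 cells. The libraries of shNR4A3 lay under those of shNT in both basal conditions and overlapped them in both LPS conditions. Whether CA13 differed between the knockdown lines was not tested.

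CA14 was the member that was higher in a knockdown line. It rose by 0.84 on the log2 scale in shNR4A2 cells (SE 0.24, adjusted p = 0.00451), to 1.80 times the shNT level. Over 12 libraries its normalised CPM was 0.308, 1.07 and 2.06 in shNT (lowest, median and highest) and 0.615, 1.84 and 2.96 in shNR4A2 cells, and the ranges overlapped. The mean was higher in 4 of 4 treatments and the libraries separated in 1, basal cells at 5% CO2 (1.53, 1.20 and 1.20 in shNT against 2.94, 1.77 and 1.57).

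In shNR4A3 cells CA14 rose by 0.61 on the log2 scale with an adjusted p at the edge of the threshold (SE 0.24, adjusted p = 0.0495). Its normalised CPM there was 0.871, 1.51 and 3.49 (lowest, median and highest of 12), and its mean was higher in 4 of 4 treatments with overlapping libraries in each. This call was lost in 23 of the 36 fits without 1 library, with the highest adjusted p (0.159) without the LPS-treated shNR4A3 library at 3.49, and with scaling by library size alone (adjusted p = 0.0511). The libraries numbered 1 held the highest CA14 value of their condition in 11 of 12 conditions.

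**Figure D4:**
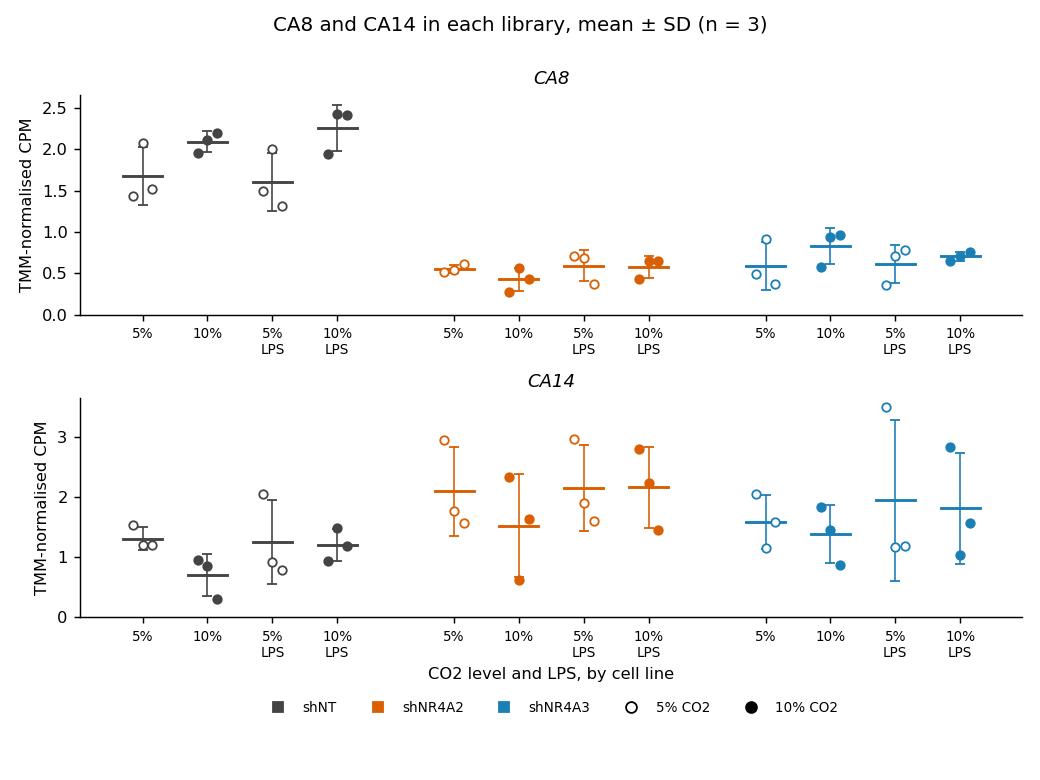
TMM-normalised CPM of CA8 and CA14 in each library by cell line, CO2 level and LPS; open points are 5% CO2, filled points 10% CO2, and lines with bars are the mean and SD of 3 libraries. CA8 lies at 1.32 to 2.43 in shNT and at 0.277 to 0.963 in the knockdown lines, and CA14 has higher means but overlapping ranges there.

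CA14 lies on chromosome 1 at 150257159 to 150265078 (plus strand). The 250 bases before its RefSeq start (GRCh38.p14) fall inside an exon of CA14 in the annotation used for counting and held none of the 3 letter strings searched for CA5B, on either strand. RefSeq windows were also at hand for CA9, with 1 ACGTG match on the minus strand and 1 GGGCG match, and for CA12, with 2 GGGCG matches. None of the 4 windows, CA5B included, held AAAGGTCA. A match or its absence describes the letters of the window and says nothing of binding.

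The monocyte markers moved with the line as well. Their summed level was 867 to 1269 TPM in the shNT libraries, 1527 to 1900 TPM in those of shNR4A2 and 1653 to 2287 TPM in those of shNR4A3. LYZ (131 to 1058 TPM over the 36 libraries) and SPI1 (467 to 1132 TPM) had the highest median levels of the 7 and weigh most in that sum. Of the 7 markers 5 were higher in shNR4A2 cells by edgeR's test, LYZ most (log2 difference 1.70) and then CD14 (1.19), CSF1R (0.91), ITGAM (0.63) and SPI1 (0.34), and the same 5 in shNR4A3 cells (2.21, 0.79, 1.14, 0.89 and 0.49). CD33 was not called in either line, and FCGR1A was lower in shNR4A3 cells (-0.14). Of all genes tested, 20.2% were called higher in shNR4A2 cells, and 16% higher and 16.9% lower in shNR4A3 cells. Their part in the carbonic anhydrase differences was not tested. In bulk RNA, fewer cells with a transcript and less transcript per cell cannot be told apart.

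**Figure D5:**
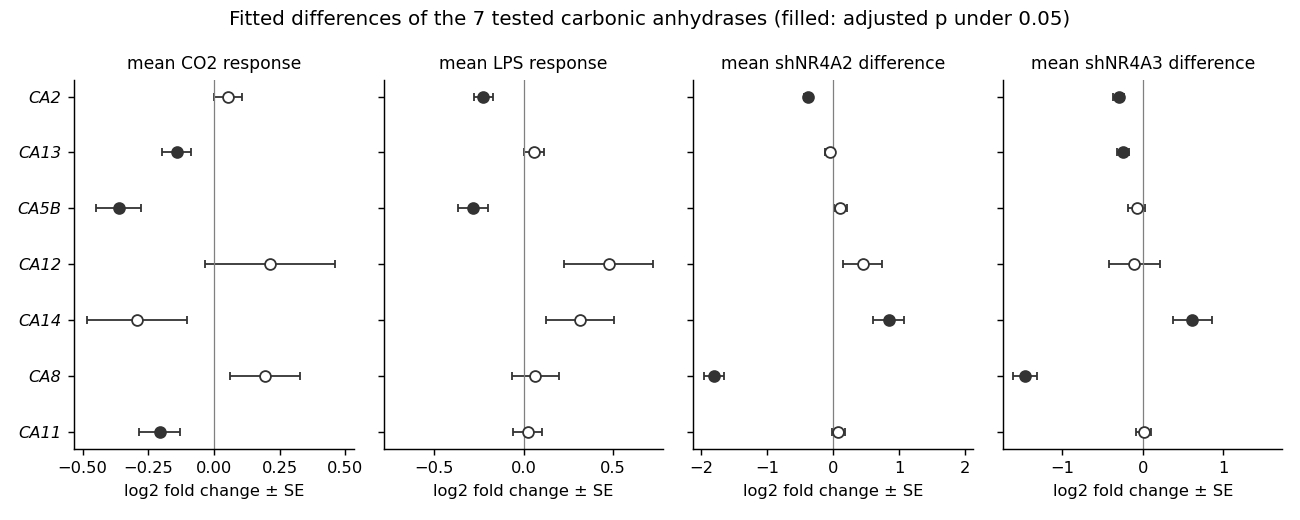
Fitted log2 fold changes with standard errors of the 7 tested carbonic anhydrases in the 4 mean comparisons, each panel with its own horizontal axis; filled points have an adjusted p under 0.05 in edgeR's test. CA5B is lower at 10% CO2 (-0.36) and with LPS (-0.28), CA8 is lower in both knockdown lines (-1.81 and -1.46), and CA14 is higher there (0.84 and 0.61).

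As a description, the genes whose log2 CPM followed each called member most closely over the 36 libraries were found by Pearson's r. CA8 had the closest, DSG2 (r = 0.903), a desmosomal cadherin, and LINC00159 (r = 0.901). CA2 was followed by SLC22A15 (r = 0.872) and CCDC125 (r = 0.840), and CA5B by ADGRE5, a leukocyte adhesion receptor (r = 0.801), and CORO1C, an actin-binding coronin (r = 0.801). CA14 was followed by SSU72 (r = 0.772) and CYRIB (r = 0.762), CA13 by TFPI, the tissue factor pathway inhibitor (r = 0.707), and MXRA7 (r = 0.690), and CA11 by MCRS1 (r = 0.606) and POLR2C (r = 0.590). The 36 libraries share conditions and lines, so differences between lines carry part of each r. Among the members themselves the correlations furthest from 0 were CA2 with CA8 (r = 0.588) and CA8 with CA14 (r = -0.591).

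The remaining genes of the family gave little more. CA3 and CA7 passed the filter of the 5 (CA3, CA5A, CA6, CA7 and CA10), and the only call in the 4 mean comparisons was CA3, lower in shNR4A3 cells by 0.41 on the log2 scale (adjusted p = 0.00271). Its exons share 165 bases with CA3-AS1 on the opposite strand, which had 107 to 260 counts per library against 40 to 126 for CA3. CA11, CA13 and CA14 also share bases with opposite-strand genes (SEC1P, ENSG00000258256 and ENSG00000276110), none with more than 11 counts in a library, and CA5B with INE2, which had none.

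The counts of the other lists are read against the share of all genes called, which was 36.4% for CO2, 64.6% for LPS, 40.9% for shNR4A2 and 32.9% for shNR4A3. By direction, of 17720 genes 3018 were called higher and 3430 lower with CO2, and 5412 higher and 6039 lower with LPS. In shNR4A2 cells 20.2% were called higher and 20.7% lower, and in shNR4A3 cells 16% and 16.9%. Of 11 tested transport partners 5 were called in the mean CO2 response, 3 higher and 2 lower, a share near that of all genes, led by the sodium bicarbonate cotransporter SLC4A7 (log2 difference 0.83, adjusted p = 1.29e-08) and the lactate transporter SLC16A1 (0.29, adjusted p = 1.52e-07). With LPS 5 of 11 were called, below the share of all genes, all of them higher and led again by SLC4A7 (0.62) and the water channel AQP1 (0.54), but 3 higher and 2 lower with scaling by library size alone. In the shNR4A2 line 6 were called, 2 higher and 4 lower, and in the shNR4A3 line 4, 2 in each direction. SLC4A4, another sodium bicarbonate cotransporter, was lower in both lines (-1.78 and -1.64), and the anion exchanger SLC4A3 was higher (0.72 and 0.93).

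Among 9 bicarbonate-using enzymes, all tested, 4 were called in the mean CO2 response, where 36.4% of all genes were. These 4 were higher, where 3018 of all 17720 genes tested were called higher. The largest differences were those of CAD, which starts pyrimidine synthesis (0.49, adjusted p = 2.01e-08), and CPS1, which makes carbamoyl phosphate in mitochondria (0.46, adjusted p = 0.00603). With LPS 4 of 9 were called, where 64.6% of all genes were, 3 higher and 1 lower, with MCCC2 at 0.36 and CPS1 at 0.36, but scaling by library size alone gave 1 higher and 5 lower and CPS1 lost its call. In shNR4A2 cells 6 of 9 were called, where 40.9% of all genes were. All 6 were lower, among them CPS1 (-0.61) and MCCC2 (-0.60), where 20.7% of all genes were called lower. In shNR4A3 cells 4 of 9 were called, where 32.9% of all genes were, 3 lower and CPS1 higher (0.80). PTPRG, a receptor phosphatase with a carbonic anhydrase-like domain, was the only gene of the 3 sensors and receptors that passed the filter, and was higher in the 4 comparisons (0.30 with CO2, 0.46 with LPS, 0.60 in shNR4A2 and 0.47 in shNR4A3 cells).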

How the data were processed

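RNA of THP-1 cells was sequenced in 36 libraries, 3 for each of 12 conditions. According to the study's methods the 3 came from separate experiments, so p-values measure the spread between them. The authors deposited raw counts per gene from featureCounts (Subread 1.5.2), made after trimming by Trimmomatic 0.36 and STAR 2.5.2b alignment on GRCh38. The annotation release and strand setting are not given in the sources used here. Of 57500 gene IDs 98.1% matched a symbol. Totals were 16171161 to 23929138 counts per library.

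Genes were kept with filterByExpr (minimum count 10, minimum total 15, leaving 17720), scaled by TMM and tested with edgeR 4.0.16 (R 4.3.3, limma 3.58.1) by quasi-likelihood F tests, with Benjamini-Hochberg adjustment over all genes kept and a threshold of 0.05. Mean responses, line differences and interactions came from 1 fit to the 36 libraries, and the CO2 comparison within a line and state from its own 6. The SE given with edgeR's differences was derived from the test, as the absolute log2 difference divided by the square root of F. Normalised CPM used TMM library sizes, log2 CPM a prior count of 2, and TPM the counts with the exon lengths in the deposited files. Figures were drawn with matplotlib 3.10.9. The calling code was tested on simulated data. Alternatives were RLE factors, library size only, DESeq2 1.42.0 (the tool of the study's methods), no filter, a filter at 1 CPM, a replicate block and each library left out. Text names every member, the 2 most similar genes of each called member, and the largest calls of each list. Same-numbered libraries at 5% and 10% CO2 correlated over 0.1 in all 3 pairs only in basal shNR4A2 cells. The block therefore stayed an alternative, and its value is given for those cells. Over genes with a mean of 10 CPM or more, pairs of replicate 1 correlated at 0.46 to 0.63 in every comparison. Pairs of replicate 2 ran from -0.22 to 0.46 and those of replicate 3 from -0.40 to 0.48. These values do not settle whether the libraries were paired. The calls of CA2 that depend on the block are therefore given with and without it. Members and lists were chosen with earlier results of these data known. Some marker genes are not reported here.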

Additional observations from a re-analysis of the deposited data

How the results depend on the processing

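The mean CO2 response called 3 members and 1 with DESeq2 or without the filter, where CA5B alone kept its call, and 1 to 3 without single libraries. The LPS response called 2, and 4 with library size only, where CA11 and CA13 were added, and 2 to 3 without single libraries, CA12 being added without shNT 10% CO2 replicate 2, shNR4A2 10% CO2 replicate 3 or shNR4A3 5% CO2 + LPS replicate 1. The shNR4A2 difference called 3 throughout those fits, and the shNR4A3 difference 3 to 4. In shNR4A3 cells CA4 was added with DESeq2 and without the filter, and CA14 was lost with library size only. With LPS, CA9 was added without the filter and CA14 with the block. Interactions called 0 members, 1 without the filter and 0 to 1 without single libraries. The comparisons within a line and state called 0, 2 without the filter, 2 in 1 fit to all 36 libraries, and 0 to 1 without single libraries (CA5B, without shNR4A2 5% CO2 + LPS replicate 3, adjusted p = 0.0314).

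Replicate numbers are shared by all conditions, but only 97 of 198 pairs of same-numbered libraries correlated over 0.1 in their deviations. The numbers were therefore not taken as a pairing of the whole series. Whether they mark a pairing is not settled, as 31 of 36 libraries were closest to their own number. The median r was 0.096 for same-numbered and -0.056 for differently numbered libraries. In basal shNR4A2 cells all 3 pairs correlated over 0.1 (0.31, 0.29 and 0.19). With the replicate block 1 interaction (CA2, CO2 by LPS, -0.29, adjusted p = 0.00407) and 1 comparison within a line and state (CA2, basal shNR4A3, 0.23, adjusted p = 0.00936) were called. CA14 with LPS also gained a call (0.31, adjusted p = 0.0421).

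Signs turned only for differences that were not called in the fit to all 36 libraries with TMM. Of these, CA11 and CA13 with LPS were called lower by edgeR with library size only (adjusted p = 0.0279 and 0.0192). With library size only the LPS differences of CA8, CA11 and CA13 were -0.14, -0.19 and -0.15, and CA11 in shNR4A3 was -0.021, and -3.02e-05 without the filter. Without single libraries CA11 ran from -0.017 to 0.047 with LPS and from -0.031 to 0.041 in shNR4A3, and CA12 in shNR4A3 from -0.24 to 0.12. The cause of these changes was not tested. CA4 in shNR4A3 (DESeq2 2.73, adjusted p = 0.00726) and CA9 with LPS (no filter 1.72, adjusted p = 0.0298) were called on 50 and 42 counts in all.

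Over all genes, the calls within a line and state were 109, 1452, 2, 35, 200 and 378 (basal then LPS in shNT, shNR4A2 and shNR4A3), and 358, 1801, 43, 600, 550 and 885 with DESeq2, 144, 1568, 361, 619, 1073 and 518 with the block, 418, 2238, 87, 1112, 823 and 1402 without the filter, and 303, 1289, 58, 1009, 107 and 860 in 1 fit. CO2 by LPS gave 353 calls, against 640, 861 and 582 with DESeq2, the block and no filter. LPS by shNR4A2 gave 42, against 93, 111 and 83, and LPS by shNR4A3 67, against 176, 212 and 152. Depth limits CA1, CA4, CA9 and CA12, and CA8 and CA14 rest on 5 to 51 and 7 to 75 counts a library.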
